A study of Mus musculus with 8 samples.

Results

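The genes that make, regulate and export cholesterol and fatty acids were followed through the cell classes of the mouse periosteum. They were taken by symbol from a fixed list, and 32 of the 32285 genes in the matrices were members. The list held 5 regulators of the sterol response, 17 enzymes of the cholesterol pathway, 8 genes of fatty acid synthesis and desaturation, and 2 transporters of cholesterol efflux. Each of the 32 symbols named a single gene, and together they gave 27803 UMIs (0.0578% of all UMIs of kept cells) in the normal diet (ND) library and 27678 (0.0560%) in the high-fat diet (HFD) library. A UMI is a molecular tag that lets each captured RNA molecule be counted once.

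Periosteum is the cell layer on the outer face of bone, and its cells were released with collagenase and dispase from leg bones of C57BL/6J male mice that were 16 weeks old. The labels name no allele or transgene in either group. They had been fed ND chow or HFD chow, the latter with 60% of calories from fat, over the 12 weeks that began at 4 weeks of age. The labels list 4 replicates for each diet. However, each diet came as 1 matrix of UMI counts with no map from barcodes to replicates or mice. Each diet was thus 1 library of pooled cells. No test between diets was therefore possible, and all ratios describe these 2 libraries, with intervals that cover counting error only.

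Of 6314 ND and 6636 HFD barcodes, 6029 and 6224 passed the filters, with median depths of 4610 and 4823.5 UMIs, and 14 of the kept barcodes had the same sequence in both libraries. The cells were clustered without the 32 genes or other genes of the pathway, and clusters were named from fixed markers as "like" cells, which gave 14 named classes from 26 of 29 clusters. Blood cell classes made up 85.3% of the kept ND cells and 79.8% of the kept HFD cells, while mesenchymal-like cells, the connective tissue and bone-forming cells that the label periosteum refers to, made up 6.80% and 10.7%. The summed level of 13 genes that respond to tissue dissociation, such as Fos and Jun, was lower in HFD in 6 of 6 main classes and 13 of 14 named classes, with HFD over ND ratios of 0.535 to 0.766 in the main classes. Its part in the diet ratios of the members was not tested.

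Cholesterol is built from acetyl-CoA by way of mevalonate and the isoprenoid diphosphates, then squalene, lanosterol and a series of sterols, and the same acetyl-CoA feeds fatty acid synthesis. When sterols in the membrane of the endoplasmic reticulum run low, SCAP escorts the SREBP transcription factors, encoded by Srebf1 and Srebf2, to the Golgi, where they are cleaved and released to switch on these genes, and INSIG proteins hold SCAP back when sterols are plentiful. Excess sterols activate the LXR nuclear receptors, which induce the transporters Abca1 and Abcg1 as well as Srebf1. In bone the pathway is best known through farnesyl diphosphate synthase (Fdps), the target of the nitrogen-containing bisphosphonates that inhibit osteoclasts.

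SREBP-driven promoters typically pair a sterol response element with nearby sites for the factors NF-Y and Sp1. RefSeq promoters of build GRCm38.p6, covering 250 bases before to 50 bases after the start, were found for 25 of 32 members. Those of Hmgcs1, Idi1 and Sc5d are printed, a choice made after their values were seen. Hmgcs1 was the single member with an exact match to the form of the sterol element searched. Idi1 was among the genes that varied most closely with the rest of the cholesterol enzymes across clusters, and Sc5d was the enzyme that varied against them. Capitals mark TCACNCCAC (a form of the sterol response element), CCAAT (the NF-Y motif, ATTGG when read on the other strand) and GGGCGG (the Sp1 motif, CCGCCC on the other strand).
Hmgcs1 (chr13:119690101-119690400, plus strand): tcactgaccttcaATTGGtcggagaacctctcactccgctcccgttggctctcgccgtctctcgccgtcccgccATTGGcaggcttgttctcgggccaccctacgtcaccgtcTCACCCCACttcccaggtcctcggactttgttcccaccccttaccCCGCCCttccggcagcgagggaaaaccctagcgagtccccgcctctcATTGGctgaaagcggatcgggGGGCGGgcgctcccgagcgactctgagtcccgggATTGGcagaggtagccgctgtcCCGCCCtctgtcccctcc
Idi1 (chr13:8885356-8885655, plus strand): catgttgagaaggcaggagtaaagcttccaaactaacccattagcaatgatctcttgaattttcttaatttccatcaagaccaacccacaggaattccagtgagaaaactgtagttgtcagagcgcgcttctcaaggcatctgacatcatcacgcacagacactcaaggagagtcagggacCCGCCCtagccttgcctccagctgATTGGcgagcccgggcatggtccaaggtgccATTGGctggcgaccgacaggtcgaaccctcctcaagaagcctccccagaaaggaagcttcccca
Sc5d (chr9:42264251-42264550, minus strand): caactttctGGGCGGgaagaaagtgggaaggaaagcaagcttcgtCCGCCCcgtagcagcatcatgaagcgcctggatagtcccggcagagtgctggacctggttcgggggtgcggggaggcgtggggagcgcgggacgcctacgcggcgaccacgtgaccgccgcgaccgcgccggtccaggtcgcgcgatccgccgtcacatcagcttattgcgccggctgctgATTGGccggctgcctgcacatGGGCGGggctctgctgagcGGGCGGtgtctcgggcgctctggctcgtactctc

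The sterol element TCACNCCAC, searched on both strands, was found for 1 of the 25 members with a promoter (Hmgcs1), against 1.44% of the 27025 genes in the promoter table. CCAAT was present for 19 of 25 members and for 13 of 14 cholesterol enzymes, against 41.1% of all genes, and GGGCGG for 21 of 25 and 13 of 14, against 38.2%. Among the fatty acid genes CCAAT and GGGCGG were each present for 2 of 5, and TCACNCCAC for 0 of 5. The motifs do not overlap one another in the printed promoters. A match is a description of letters and not evidence that a factor binds there. Other forms of the sterol element and sites outside the 300 bases were not searched, and 7 members had no promoter to search. A missing match therefore does not show that a gene lacks the element.

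The level of a gene is given as UPM, its UMIs per 1000000 UMIs of the class, and levels are compared between classes for one gene, not between genes. Over both libraries the 17 cholesterol enzymes summed to 921 UPM in dendritic-like cells, 355.5 in granulocyte/monocyte progenitor-like cells, 351 in macrophage/monocyte-like cells and 310.2 in mesenchymal-like cells. Mature neutrophil-like cells had the lowest sum, 129 UPM, or 0.465 UMIs of all 17 genes together per cell against 10.1 in the progenitor-like cells. The share of a class's UMIs taken by its 50 most abundant genes bears on these levels, since it ranged from 22.7% in endothelial-like to 48.7% in mature and 61.2% in immature neutrophil-like cells. With those genes left out of the totals, mature neutrophil-like cells (251 UPM) stood beside NK-like cells (252 UPM) at the bottom, and immature neutrophil-like cells moved from 210.3 to 542 UPM.

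**Figure D1:**
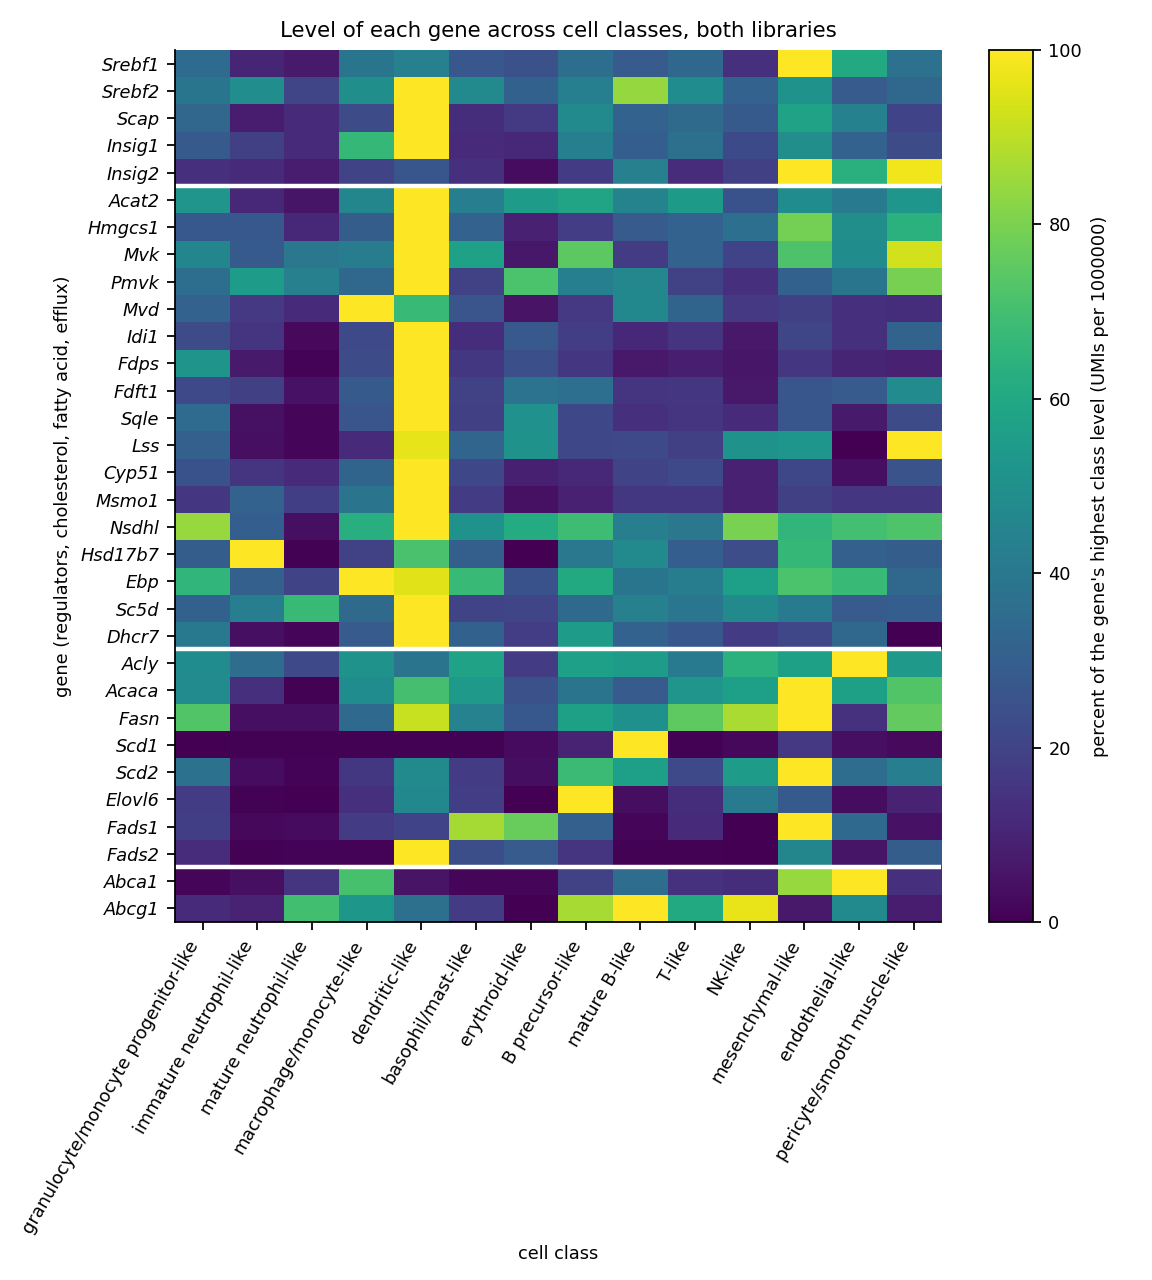
Heat map of the level of each of the 32 genes (rows, grouped by role with white lines between groups) in the 14 named cell classes (columns), as a percent of the gene's own highest class level in UMIs per 1000000, over both libraries. Dendritic-like cells are at 100% for 13 of 17 cholesterol enzymes, and Scd1 is bright in mature B-like cells alone, at 468 UMIs per 1000000.

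Among the 10 classes with at least 50 cells in each library, the class with the highest level was the same in both libraries for 25 of 32 members, for 5 of 5 regulators, 11 of 17 cholesterol enzymes and 8 of 8 fatty acid genes. In 6 members (Srebf2, Fdps, Scd1, Scd2, Fads1 and Fads2) the counting interval of the highest class lay above that of every other class in both libraries. The rankings here were made for the members only. No share over all genes stands beside these counts, so they are not shown to be particular to the members. Mature neutrophil-like cells had the lowest level for 19 of 32 members, and for 18 of 32 with the 50 most abundant genes left out of the totals. Among all genes, 6420 reached 50 UMIs in the 3160 mature neutrophil-like cells, against 10782 in the 1078 mesenchymal-like cells. How often a gene outside the list was lowest there was not counted. Mesenchymal-like cells had the highest level for 10 of 32, more than any other of the 10 classes. When all 14 named classes were ranked, a choice made after seeing the data, dendritic-like cells were highest for 17 of 32 members and for 13 of 17 cholesterol enzymes, and 19 of 32 kept the same highest class in both libraries.

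Unless another class is named, highest and lowest below refer to the 10 larger classes. Regulators of the sterol response differed in where they were found. Srebf2, which encodes the SREBP chiefly tied to cholesterol synthesis, was at 64.8 UPM in ND and 59.8 UPM in HFD mature B-like cells (302 and 245 UMIs), against 18.5 and 11.8 UPM in mature neutrophil-like cells. Srebf1, whose products favor fatty acid genes, was highest in mesenchymal-like cells, at 29.8 and 25.6 UPM in ND and HFD, and at 17.3 and 16.2 UPM in endothelial-like cells. Its lowest level was 2.91 and 0.953 UPM, in mature neutrophil-like cells, from 18 and 5 UMIs.

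The retention factors split by cell class. Insig1, itself an SREBP target, was highest in macrophage/monocyte-like cells at 86.3 UPM in ND and 68.5 in HFD, followed by mesenchymal-like cells at 52.0 and 61.6 UPM. Insig2, the paralog that does not depend on SREBP in the same way, was highest in mesenchymal-like cells, at 61.2 and 61.8 UPM, and at 26.0 and 45.9 UPM in endothelial-like cells. In macrophage/monocyte-like cells Insig2 was at 12.6 UPM in each library. Scap, the escort protein, was at 17.9 and 15.2 UPM in mesenchymal-like cells and at 1.73 and 2.54 UPM in immature neutrophil-like cells, its lowest class.

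Early steps of the cholesterol pathway did not share one highest class. Acat2, the thiolase that condenses acetyl-CoA, was spread evenly at 7.11 to 10.2 UPM over B precursor-, T-, progenitor-, mesenchymal-, macrophage/monocyte-, mature B- and endothelial-like cells, and was at 0.963 UPM in mature neutrophil-like cells. Hmgcs1, which makes HMG-CoA, was highest in mesenchymal-like cells at 45.9 UPM in ND and 51.2 in HFD, with endothelial-like cells next at 24.2 and 34.2 UPM. For the mevalonate kinase gene Mvk the highest levels, 10.9 UPM in B precursor-like and 10.6 UPM in mesenchymal-like cells, could not be told apart within their counting intervals. Pmvk, the next kinase, was highest in immature neutrophil-like cells (35.0 and 37.1 UPM) and lowest in NK-like cells (8 and 4 UMIs). Mvd, which decarboxylates mevalonate diphosphate, was at 17.6 and 17.7 UPM in macrophage/monocyte-like cells, with mature B-like cells next at 7.93 and 8.54 UPM.

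Fdps and Idi1, of the isoprenoid branch, were highest in progenitor-like and lowest in mature neutrophil-like cells with both libraries joined. Fdps, whose product supplies farnesyl groups for sterols and for protein prenylation, was at 129 UPM in ND (902 UMIs) and 102 in HFD (522 UMIs) progenitor-like cells, against 48.9 and 57.0 UPM in macrophage/monocyte-like cells. In mature neutrophil-like cells it was at 2.10 UPM in each library, from 13 and 11 UMIs. Idi1, the isomerase just upstream, was at 29.4 and 18.4 UPM in progenitor-like and 1.78 and 3.62 UPM in mature neutrophil-like cells. Over both libraries its level in progenitor-like cells, 24.8 UPM, was close to that in macrophage/monocyte-like cells, 23.8 UPM. In HFD alone Idi1 was highest in mesenchymal-like cells. Fdft1, which makes squalene, reached 12.02 UPM in B precursor-like cells, and Sqle, the squalene epoxidase that is a rate-limiting step of the later pathway, 8.61 UPM in progenitor-like cells. Mature neutrophil-like cells held 3 and 2 UMIs of Sqle.

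The sterol-modifying enzymes had their highest levels in several different classes. Lss, which forms lanosterol, had the fewest UMIs of all members (126) and was at 3.55 and 2.59 UPM in mesenchymal-like cells. No Lss UMI was seen in endothelial-like cells, which allows up to 5.20 UPM in ND and 2.70 in HFD. Cyp51, the lanosterol demethylase, and Msmo1, the sterol methyl oxidase, were highest in macrophage/monocyte-like cells, Cyp51 at 28.1 and 29.8 UPM and Msmo1 at 32.8 and 33.0 UPM. Nsdhl, which acts with Msmo1, was at 9.27 UPM in progenitor-like cells, within counting error of NK-like cells at 8.78 UPM. Hsd17b7, the sterol ketoreductase, was highest in immature neutrophil-like cells at 16.3 and 14.6 UPM (160 and 173 UMIs), while mature neutrophil-like cells held 1 UMI in ND and 0 in HFD.

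The last steps again separated the classes. Ebp, the sterol isomerase and the cholesterol enzyme with the most UMIs, was at 89.96 and 94.02 UPM in macrophage/monocyte-like cells, 66.4 and 65.3 in mesenchymal-like cells and 19.6 and 18.1 in mature neutrophil-like cells. Sc5d, the sterol desaturase, was the single member with its highest level in mature neutrophil-like cells, at 34.0 UPM in ND and 27.5 in HFD, below dendritic-like cells at 32.03 and 55.9 UPM when both libraries were joined. Dhcr7, which completes cholesterol, was highest in B precursor-like cells at 12.8 and 10.55 UPM, with 2 UMIs in each library in mature neutrophil-like cells.

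From progenitor-like to mature neutrophil-like cells the enzymes thus took different courses. Fdps went from 118 UPM in progenitor-like cells over 24.4 in cycling and 12.3 in other immature neutrophil-like cells to 2.10 UPM in mature neutrophil-like cells. Sc5d went the other way as a share of UMIs, from 14.2 UPM over 16.0 and 21.2 to 31.0 UPM. Msmo1 was at 13.6 UPM in progenitor-like cells, 8.78 in cycling and 35.5 in other immature neutrophil-like cells, and 15.8 UPM at the mature end. Pmvk followed the same shape at 23.7, 22.3, 42.5 and 28.7 UPM. Cycling markers summed to 1100 and 913 UPM in progenitor-like cells and to 26.1 and 28.4 UPM in mature neutrophil-like cells, and the share of UMIs in the 50 most abundant genes, given above, also changed along this series. Median depth was 31166 and 26736 UMIs per cell in progenitor-like and 3340 and 3282 in mature neutrophil-like cells, so a higher UPM does not mean more UMIs per cell. The part of cycling, abundant genes and depth in these levels was not tested.

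**Figure D2:**
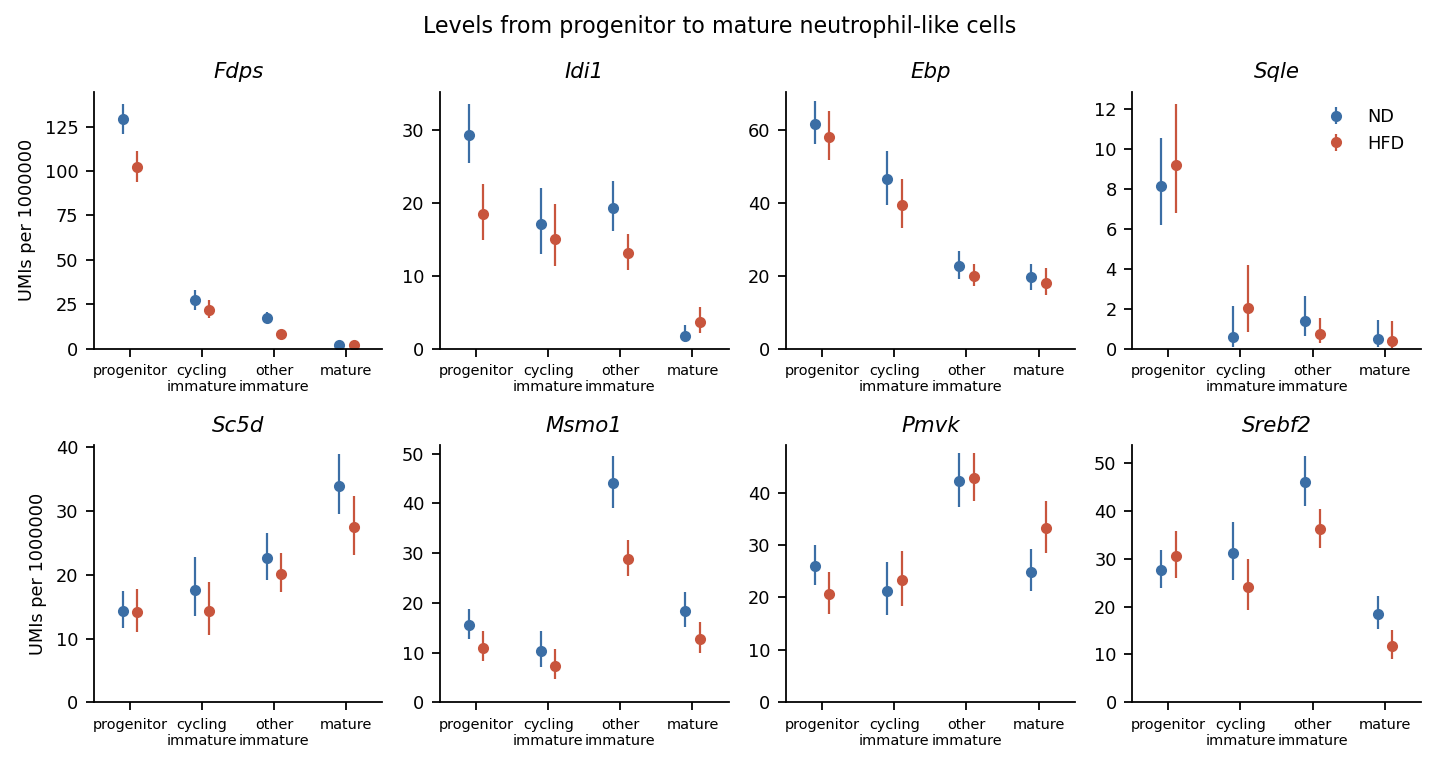
Levels of 8 genes in UMIs per 1000000 (y axis, starting at 0) in progenitor-like, cycling immature, other immature and mature neutrophil-like cells (x axis), with ND in blue and HFD in red and bars for the exact 95% counting interval. Fdps, Idi1, Ebp, Sqle and Srebf2 are lowest at the mature end, Sc5d is highest there, and Msmo1, Pmvk and Srebf2 are highest in non-cycling immature cells.

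Dendritic-like cells, a small class of 43 ND and 57 HFD cells with a median depth of 9751 and 10237 UMIs, were led by Cox6a2, Siglech, Bst2 and Ccr9. The class was a single cluster. Another cluster of 198 cells, with H2-Eb1, H2-Aa and the dendritic marker Cd209a among its leading genes, stayed unnamed and entered no ranking. All values for dendritic-like cells therefore hold for the Siglech cluster only. The 17 cholesterol enzymes of dendritic-like cells summed to 745 UPM in ND (95% interval 669 to 828) and 1053 in HFD (974 to 1137), above every other class in both libraries. Fdps was at 164 and 275 UPM, Idi1 at 81.1 and 126, Cyp51 at 68.3 and 105, Msmo1 at 70.5 and 97.5, and Hmgcs1 at 76.9 and 51.1 UPM. Insig1 was at 100.4 and 129 UPM and Srebf2 at 68.3 and 78.3 UPM. Their fatty acid genes, at 184 and 166 UPM in sum, lay below those of mesenchymal-like and mature B-like cells. Cycling markers summed to 498 and 673 UPM in dendritic-like cells, less than in progenitor-like cells (1100 and 913). The same markers were at 63.2 and 66.7 UPM in mesenchymal-like and 35.8 and 66.1 UPM in mature B-like cells. Their part in the cholesterol sum was not tested.

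**Figure D3:**
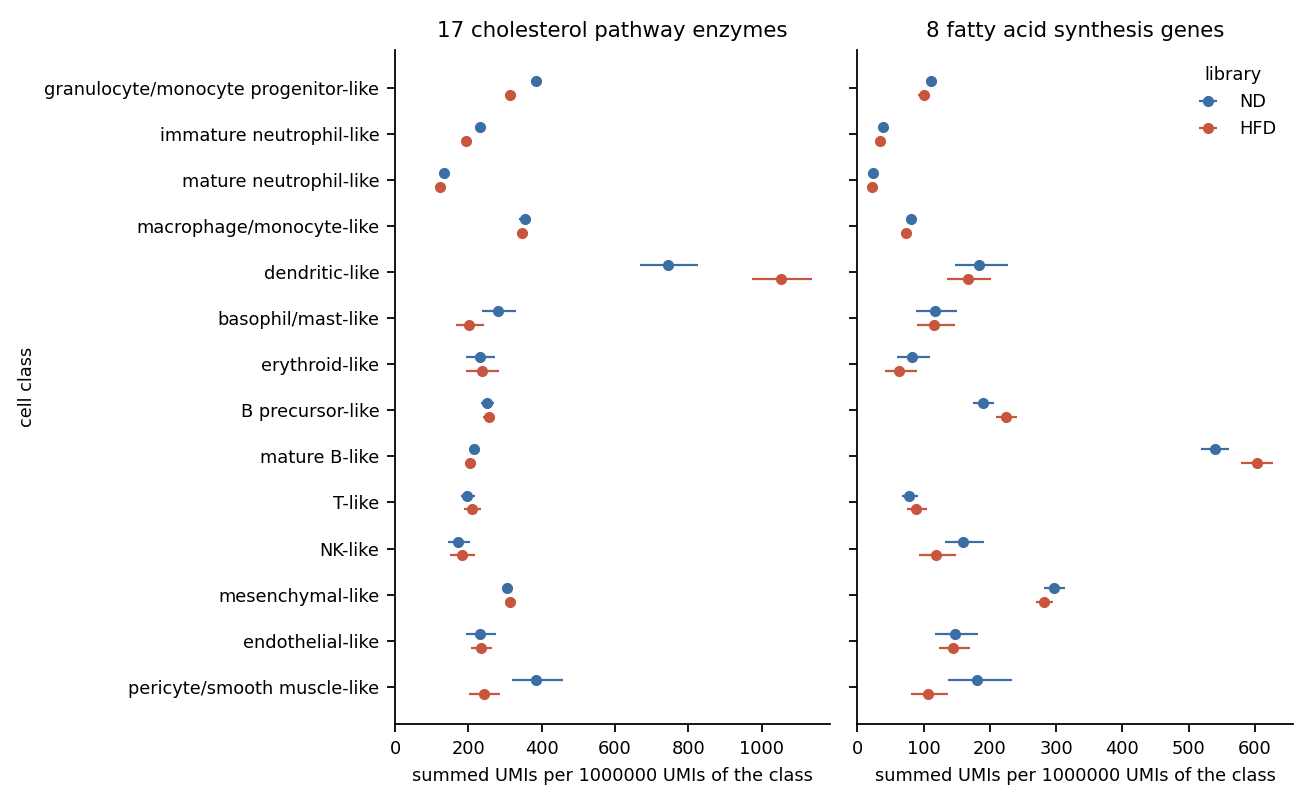
Summed level of the 17 cholesterol pathway enzymes (left) and the 8 fatty acid synthesis genes (right) in UMIs per 1000000 (x axes, starting at 0) for the 14 named classes (y axis), with ND in blue, HFD in red and bars for the exact 95% counting interval. Dendritic-like cells lead on the left, at 745 in ND and 1053 in HFD, and mature B-like cells on the right, at 539 and 602.

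Fatty acid genes had a different distribution, and Scd1 made up most of their sum in mature B-like cells. Their sum was 539 UPM in ND and 602 in HFD mature B-like cells, 297 and 282 in mesenchymal-like cells, and 22.8 and 22.3 in mature neutrophil-like cells. Acly, which makes acetyl-CoA from citrate in the cytosol, was highest in endothelial-like cells at 69.3 and 79.2 UPM and at 16.996 and 16.2 UPM in mature neutrophil-like cells. Acaca, the carboxylase that commits acetyl-CoA to fatty acids, and Fasn, the synthase itself, were both highest in mesenchymal-like cells. Acaca was there at 16.1 and 15.2 UPM, against 1 UMI in ND and 0 in HFD mature neutrophil-like cells. Fasn was at 23.4 and 19.3 UPM, against 9 UMIs in each library of immature neutrophil-like cells.

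Scd1, the stearoyl-CoA desaturase that makes oleate, was at 437 UPM in ND (2038 UMIs) and 504 in HFD (2065 UMIs) mature B-like cells. The next class, mesenchymal-like cells, held 76.6 and 77.4 UPM, and progenitor-like, T-like and mature neutrophil-like cells held 1.37 to 3.92 UPM. Within the B lineage the level went from 17.7 UPM in cycling over 97.4 in other B precursor-like cells to 468 UPM in mature B-like cells, over both libraries. The mature B-like class joined clusters of 1419, 592 and 151 cells. Ighd was among the leading genes of the smaller clusters but not of the largest, so the class is not shown to be a single stage. Of 7 adipocyte markers, 4 (Adipoq, Plin1, Cidec and Lep) were at 0 in mature B-like cells, and all 7 together gave 2 UMIs in each library. Scd2, the paralog, did not share the course of Scd1: it was at 35.6, 77.8 and 42.2 UPM in the same B lineage groups. The Scd genes are close copies, so their counts are uncertain.

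In mesenchymal-like cells Scd2 was at 76.6 and 73.2 UPM, its highest class. Subclustering of these cells gave fibroblast progenitor-like, tenocyte-like and osteoblast-like groups. A chondrocyte-like subcluster of 23 cells and unnamed subclusters of 70 and 18 cells were not compared. Scd2 was at 66.9, 125 and 39.0 UPM in the fibroblast progenitor-, tenocyte- and osteoblast-like groups over both libraries. Scd1 was at 92.2, 86.7 and 16.8 UPM, so that among these groups both desaturases were lowest in the osteoblast-like cells. Adipocyte markers gave 38 and 69 UMIs among all mesenchymal-like cells, with Cidec, Cfd and Lep at 0, and Adipoq, which stromal cells of bone marrow also express, at 8 and 43 UMIs. Their part in the mesenchymal levels was not tested.

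Elovl6, which elongates palmitate, was highest in B precursor-like cells at 34.9 and 35.4 UPM, and within them at 42.9 and 47.4 UPM in cycling and 18.5 and 16.7 UPM in other cells. Mature B-like cells held 7 and 4 UMIs of it. Fads1 and Fads2, the desaturases that make polyunsaturated fatty acids and lie next to each other in the genome, were highest in mesenchymal-like cells among the 10 larger classes, at 23.0 and 22.3 UPM for Fads1 and 26.7 and 23.4 UPM for Fads2. Among the mesenchymal-like groups compared, tenocyte-like cells held the most of both, with 27.8 and 41.6 UPM of Fads1 and 60.2 and 60.9 UPM of Fads2. No UMI of either was seen in NK-like cells. In dendritic-like cells Fads2 was at 53.4 and 54.3 UPM, while Fads1 gave 3 and 2 UMIs.

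**Figure D4:**
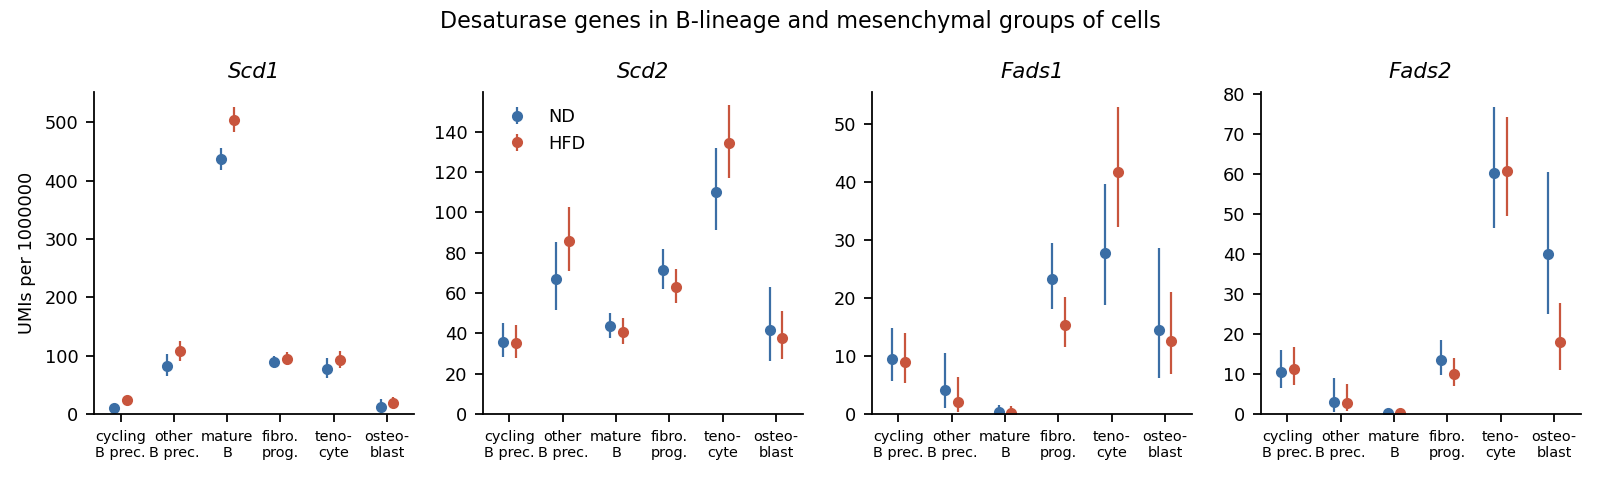
Levels of Scd1, Scd2, Fads1 and Fads2 in UMIs per 1000000 (y axes, starting at 0, with a scale for each gene) in cycling B precursor-, other B precursor- and mature B-like cells and in fibroblast progenitor-, tenocyte- and osteoblast-like cells (x axis), with ND in blue, HFD in red and bars for the exact 95% counting interval. Scd1 reaches 437 in ND and 504 in HFD mature B-like cells, while Scd2, Fads1 and Fads2 peak in tenocyte-like cells.

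The efflux transporters had different highest classes. Abca1, which loads cholesterol onto lipid-poor apolipoprotein A-I, was at 50.2 and 51.3 UPM in endothelial-like, 39.2 and 45.9 in mesenchymal-like and 41.0 and 30.7 UPM in macrophage/monocyte-like cells, and at 6 and 4 UMIs in progenitor-like cells. The macrophage/monocyte-like value came mostly from 1 cluster of 181 of the 864 cells, led by C1qa, C1qc and C1qb, which held 225 of 245 ND and 147 of 168 HFD Abca1 UMIs, at 183 and 146.5 UPM. The other clusters of the class were at 3.10 and 4.32 UPM and at 7.56 and 9.67 UPM. Abcg1, which exports cholesterol to formed HDL particles, was at 66.9 and 72.7 UPM in mature B-like and 73.0 and 60.9 UPM in NK-like cells, within counting error of each other, but at 5.64 and 4.03 UPM in mesenchymal-like cells. Along the neutrophil series Abcg1 was at 7.42 and 6.77 UPM in immature and 51.0 and 45.8 UPM in mature neutrophil-like cells.

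Across the 26 named clusters, which share 2 libraries and differ in depth, 16 of 17 cholesterol enzymes correlated positively with the sum of the other 16, with a median Spearman's rho of 0.463 and a range from -0.327 (Sc5d) to 0.742 (Fdft1). The members most like the rest of their pathway after Fdft1 were Fdps (0.711) and Idi1 (0.634). The cholesterol sum had a rho of 0.562 with the cycling markers, 0.519 with Insig1, 0.392 with Srebf2 and 0.284 with the fatty acid sum. Between paralogs, Fads1 and Fads2 had a rho of 0.685, Scd1 and Scd2 of 0.502, and Abca1 and Abcg1 of 0.457. These values describe clusters and were not tested.

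Between diets the pathway as a whole stood close to even. Over all kept cells the HFD over ND ratio was 0.946 (95% counting interval 0.923 to 0.969) for the summed cholesterol enzymes, 0.945 (0.910 to 0.981) for the regulators, 1.03 (0.995 to 1.06) for the fatty acid genes and 0.977 (0.920 to 1.04) for the efflux transporters. The share of cells in each class differed between the libraries, as given above for mesenchymal-like cells, and it enters these ratios. Within the 6 main classes the log2 HFD over ND of the summed cholesterol enzymes ranged from -0.10 in mature neutrophil-like to 0.08 in T-like cells, and each of the 6 intervals held 0. For the fatty acid genes it ranged from -0.15 in macrophage/monocyte-like to 0.18 in T-like cells, and the interval left out 0 in mature B-like cells only, at 0.16 (0.08 to 0.24). Scd1 made up most of that sum, with 2038 and 2065 UMIs and an HFD over ND ratio of 1.15 (1.08 to 1.23). The other fatty acid genes that reached 50 UMIs there were Acly, Fasn and Scd2, at ratios of 1.02, 0.837 and 0.936, and each interval held 1. The sum therefore does not describe the fatty acid genes as a set.

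**Figure D5:**
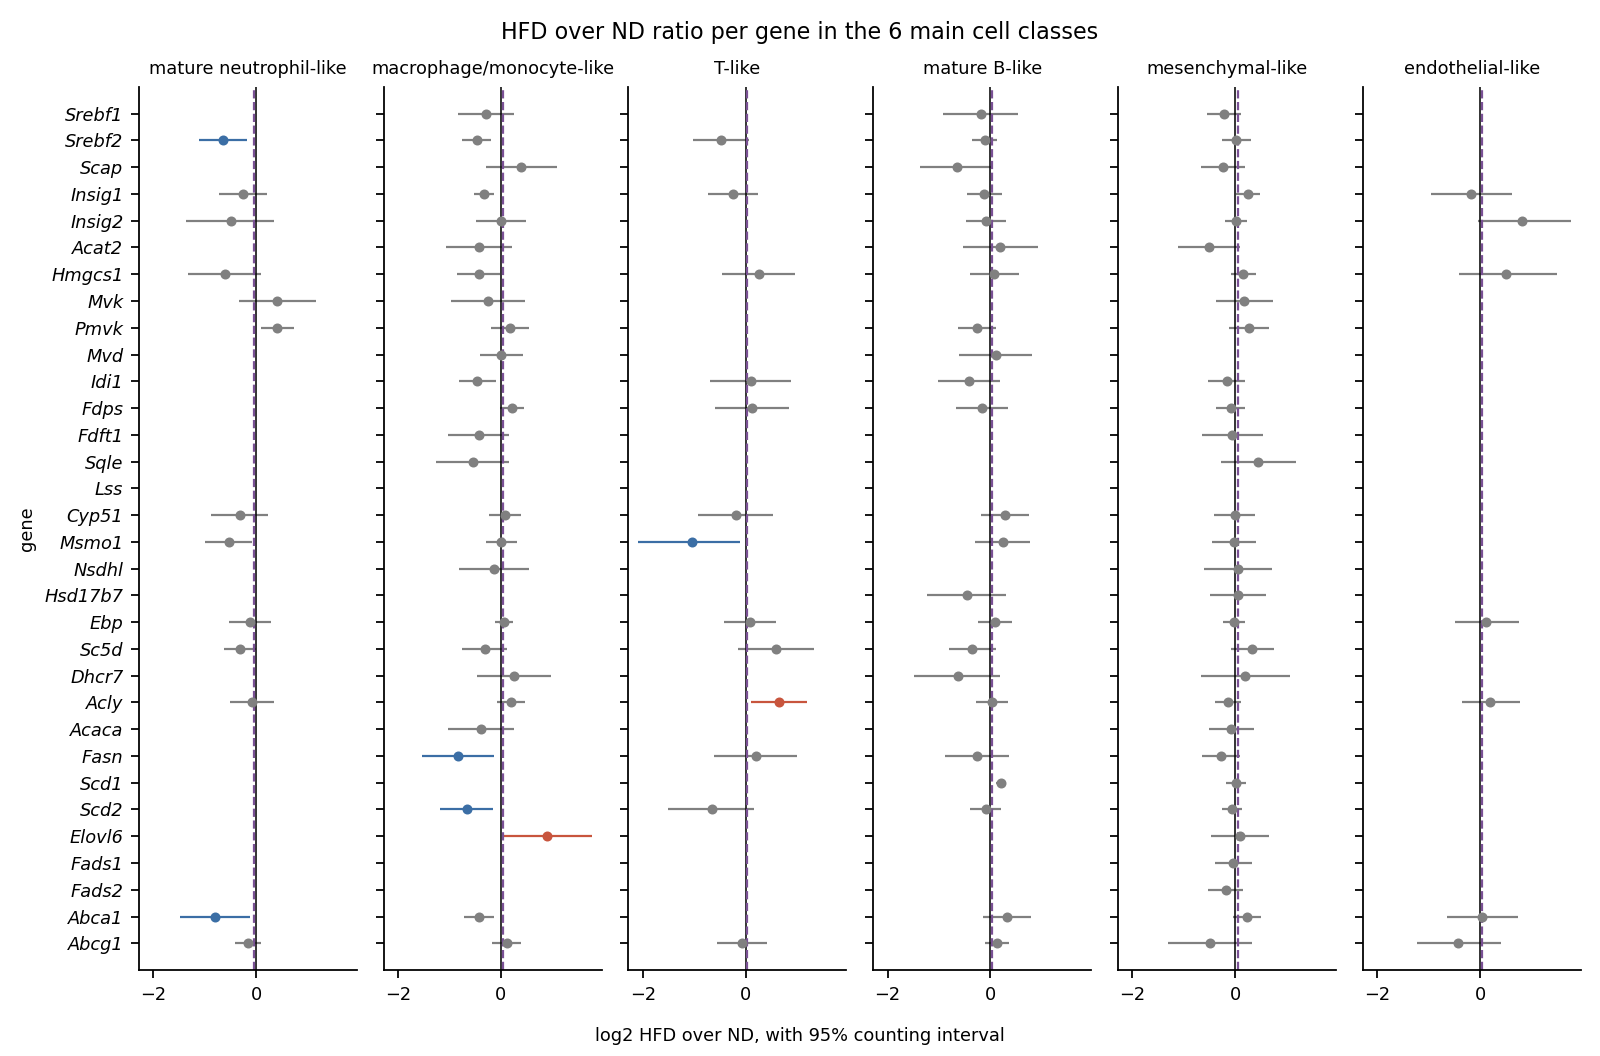
Log2 HFD over ND (x axes) for each gene with at least 50 UMIs over both libraries (y axis) in the 6 main classes, with bars for the exact 95% counting interval, a solid line at 0 and a dashed line at the median of all genes tested in the class. Red and blue points are the 2 pairs past 1.5-fold higher and the 5 pairs past 1.5-fold lower in HFD, and none of the coloured points lie in mature B-like, mesenchymal-like or endothelial-like cells.

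A gene was counted as past the fold when it differed by at least 1.5-fold with a counting interval that left out 1, among genes that reached 50 UMIs in a class with the libraries joined. Of 192 pairs of member and main class, 113 reached that count, and 31 of 32 members did so in at least 1 main class (Lss in none). Of the 113 pairs, 2 were past the fold higher and 5 lower in HFD. Among all genes tested in a main class, 1.73% to 4.37% were past the fold higher and 2.76% to 4.69% lower. As shares of the pairs, the counts of members lay within these ranges.

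Mature neutrophil-like cells had 2 of 13 tested members past the fold lower and none higher, beside 4.69% lower and 1.96% higher among all genes tested in the class. Srebf2 was at 18.5 UPM in ND (15.2 to 22.2) and 11.8 in HFD (9.06 to 15.2), a ratio of 0.641 (0.462 to 0.880). Abca1 was at 9.55 and 5.53 UPM (59 and 29 UMIs), a ratio of 0.579 (0.358 to 0.918). Of the 13 members, 11 had a ratio under 1, and their median log2 ratio was -0.31 against -0.03 for all genes. The 5 regulators, whose sum was not a planned result, summed to 45.2 and 34.1 UPM, a ratio of 0.756 (0.623 to 0.915). One cluster of this class held 172 ND and 18 HFD cells, and without it the ratios were 0.640 for Srebf2 and 0.506 for Abca1.

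In macrophage/monocyte-like cells 2 of 27 tested members were past the fold lower, beside 3.73% of all genes, and 1 was higher, beside 2.00%. Fasn was at 9.05 and 5.11 UPM (54 and 28 UMIs, ratio 0.565, 0.345 to 0.908), and Scd2 at 14.7 and 9.31 UPM (88 and 51 UMIs, ratio 0.632, 0.438 to 0.902). Elovl6 was higher in HFD, at 3.35 and 6.21 UPM, from only 20 and 34 UMIs (ratio 1.85, 1.04 to 3.40). The regulators, again a sum that was not planned, were at 159 and 129 UPM, a ratio of 0.811 (0.735 to 0.895). Srebf2 was at 42.6 and 30.7 UPM and Insig1 at 86.3 and 68.5 UPM, neither past the fold. No such sum is given for the other main classes. In T-like, mature B-like, mesenchymal-like and endothelial-like cells the Srebf2 ratios were 0.721, 0.923, 1.01 and 0.650, the last from 16 and 20 UMIs. The Insig1 ratios there were 0.846, 0.922, 1.18 and 0.881. Of these, only Insig1 in mesenchymal-like cells had an interval without 1 (1.01 to 1.39). In macrophage/monocyte-like cells the median member was at -0.24 on the log2 scale against 0.04 for all genes. Without a cluster of 112 ND and 35 HFD cells Elovl6 had fewer than 50 UMIs, and Fasn and Scd2 were at 0.520 and 0.596.

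T-like cells had 1 of 13 tested members higher, beside 2.60% of all genes, and 1 lower, beside 4.52%. Acly was at 25.5 and 39.9 UPM (55 and 61 UMIs, ratio 1.56, 1.07 to 2.29). Msmo1 was at 17.6 and 8.50 UPM (38 and 13 UMIs, ratio 0.482, 0.236 to 0.926). Without a cluster of 123 ND and 44 HFD cells Acly was at a ratio of 1.21, no longer past the fold, and Msmo1 had fewer than 50 UMIs. The median member was at 0.09 and the median gene at 0.02 on the log2 scale.

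No member was past the fold in the other main classes. In mature B-like cells 23 members were tested, beside 1.73% of all genes higher and 2.76% lower, and the Scd1 ratio was 1.15 (1.08 to 1.23). In mesenchymal-like cells 30 members were tested, beside 4.37% higher and 3.69% lower, with a median of -0.02 against 0.05 for all genes. The members with the most UMIs there stood close to even, Ebp at a ratio of 0.984 (0.851 to 1.14), Scd1 at 1.01 (0.883 to 1.16), Insig2 at 1.01 (0.870 to 1.18) and Scd2 at 0.956 (0.834 to 1.10). In endothelial-like cells 7 members were tested, beside 3.73% higher and 3.75% lower. With 40 and 88 UMIs, the ratio of Acly there was 1.14 (0.779 to 1.71), so that a difference of 1.5-fold could not be told from none.

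In the mesenchymal-like groups 4 members were past the fold. Of 17 members tested in tenocyte-like cells 1 was higher, beside 4.85% of all genes, and 1 lower, beside 3.52%. Abca1 was at 30.6 UPM in ND and 51.6 in HFD (33 and 83 UMIs, ratio 1.69, 1.11 to 2.61), and Fdps at 35.2 and 18.0 UPM (ratio 0.512, 0.304 to 0.852). In osteoblast-like cells 1 of 5 was higher, beside 4.34%, and none lower, beside 4.00%. Insig2 was at 47.3 and 75.3 UPM (26 and 84 UMIs, ratio 1.59, 1.01 to 2.58). In fibroblast progenitor-like cells 1 of 28 was lower, beside 3.68%, and none higher, beside 5.03%. Fads1 was at 23.2 and 15.4 UPM (ratio 0.662, 0.454 to 0.963). The groups held 62 to 300 cells in each library.

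Progenitors and precursors of the blood lineages, and the dendritic-like cells, were compared as a choice made after seeing the data. In progenitor-like cells 4 of 29 tested members were past the fold lower in HFD and none higher, beside 2.59% and 2.16% of all genes. Idi1 was at 29.4 UPM in ND (205 UMIs) and 18.4 in HFD (94 UMIs), a ratio of 0.628 (0.487 to 0.806). Fdft1 was at 9.02 and 4.91 UPM (ratio 0.544, 0.328 to 0.877), Cyp51 at 26.6 and 16.9 UPM (0.633, 0.485 to 0.822) and Scd2 at 33.5 and 20.2 UPM (0.603, 0.474 to 0.764). The summed cholesterol enzymes were at 385 and 314.5 UPM, a ratio of 0.816 (0.767 to 0.869), although Sqle, at 8.16 and 9.22 UPM, and Dhcr7, at 7.88 and 9.42 UPM, were not lower. The median member was at -0.09 on the log2 scale against 0.01 for all genes, and 11 of the 29 members had a ratio over 1. Cycling markers (1100 and 913 UPM), the median depth (31166 and 26736 UMIs) and the dissociation list (5211 and 2507 UPM) were all lower in HFD in this class, and their part was not tested.

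Immature neutrophil-like cells had 3 of 21 tested members past the fold lower, beside 5.69% of all genes, and none higher, beside 1.67%. Insig1 was at 28.0 and 17.2 UPM (276 and 203 UMIs, ratio 0.612, 0.508 to 0.737), Fdps at 20.7 and 12.4 UPM (0.596, 0.478 to 0.741) and Scd2 at 3.15 and 1.69 UPM from 31 and 20 UMIs. The Insig1 ratio was 0.509 in cycling and 0.652 in other cells of the class. Fdps was at a ratio of 0.488 in the other cells, where Msmo1, at 44.0 and 28.9 UPM, had a ratio of 0.656 (0.5499 to 0.781). Of the 21 members 17 had a ratio under 1, with a median of -0.21 on the log2 scale against -0.07 for all genes.

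The ratios pointed the other way in dendritic-like cells, where 2 of 11 tested members were past the fold higher, beside 4.67% of all genes, and none lower, beside 3.46%. Fdps had a ratio of 1.67 (1.27 to 2.22) and Idi1 of 1.56 (1.04 to 2.35), from 77 and 172 and from 38 and 79 UMIs. The summed cholesterol enzymes had a ratio of 1.41 (1.24 to 1.61), and 9 of the 11 members a ratio over 1, while Hmgcs1 was at 76.9 UPM in ND and 51.1 in HFD. These values rest on 43 and 57 cells. The difference between the ratios in progenitor-like and in dendritic-like cells was not tested.

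In B precursor-like cells 2 of 25 tested members were past the fold higher, beside 2.38% of all genes, and none lower, beside 2.95%. Scd1 was at 34.9 and 56.4 UPM (104 and 198 UMIs, ratio 1.62, 1.27 to 2.07), and Fasn at 8.73 and 14.5 UPM (26 and 51 UMIs, ratio 1.67, 1.02 to 2.78). In cycling cells of the class the ratios were 2.05 for Scd1 and 1.88 for Fasn, and in the other cells, which held 81 and 148 of the Scd1 UMIs, Scd1 was at 83.2 and 107 UPM, a ratio of 1.29 (0.978 to 1.71) that was not past the fold. The class held 361 ND and 458 HFD cells, of which 117 and 120 were in the cycling cluster.

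Of 37 further genes of lipid synthesis and its control, 11 to 28 reached 50 UMIs in a main class, and of 116 pairs tested 6 were past the fold higher and 1 lower in HFD. Among all genes the share in these classes was 1.73% to 4.37% higher and 2.76% to 4.69% lower, as given above for each. As shares of the 116 pairs, the count of higher pairs lay above its range and the count of lower pairs below its range. These shares rest on few pairs and were not tested. Endothelial-like cells had 2 higher in HFD, Ggps1, the geranylgeranyl diphosphate synthase, at 26.0 and 54.9 UPM (ratio 2.11, 1.19 to 4.00), and Acat1, the mitochondrial thiolase, at 45.0 and 80.1 UPM (ratio 1.78, 1.14 to 2.87). Lpin1, a phosphatidate phosphatase and SREBP target, was higher in mesenchymal-like (ratio 1.62) and in macrophage/monocyte-like cells (1.60), Acss2, the acetyl-CoA synthetase, in mature neutrophil-like cells (1.65) and Hacd3, of fatty acid elongation, in T-like cells (1.67). Mylip, an LXR target that marks lipoprotein receptors for breakdown, was lower in HFD macrophage/monocyte-like cells, at 41.2 and 26.3 UPM (246 and 144 UMIs, ratio 0.638, 0.516 to 0.787). In the same cells the LXR targets Abca1, at 41.0 and 30.7 UPM, and Abcg1, at 35.5 and 38.5 UPM, were not past the fold. In the cluster that held most of the Abca1 UMIs the Abca1 ratio was 0.799 (0.645 to 0.989), and in the largest cluster of the class it was 1.40 (0.624 to 3.27) from 11 and 18 UMIs.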

How the data were processed

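Single-cell RNA was captured with 10x Genomics chemistry, and the authors deposited 1 matrix of UMI counts per diet, made with Cell Ranger 6.0.1 on mm10 per the submitters' processing notes. The 8 samples of the labels were pooled into these 2 matrices. Barcodes with over 500 and under 8000 genes and under 20% mitochondrial UMIs were kept. Counts were normalized with sctransform 0.4.2, with cell cycle scores regressed out, and clustered in Seurat 5.3.0 (R 4.3.3, 30 components, resolution 0.5) without members or other pathway genes. Clusters were named from at least 3 detected markers, with limits for detection set after the clusters were seen, and clusters whose leading genes went against the name stayed unnamed, with 5.49% of ND and 4.80% of HFD cells. The automatic doublet caller in scanpy 1.11.5 marked 9 and 23 cells and was taken as not having worked, so that no doublets were removed, and leaving out the top 5% of scores was an alternative.

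Levels are UMIs per 1000000 UMIs of a class with exact Poisson 95% intervals. HFD over ND ratios carry exact conditional binomial (Clopper-Pearson) 95% intervals from scipy 1.17.1, and a count of 0 allows up to 3 counts. All cover counting error only. With 1 library per diet no test was made. Free RNA in droplets was not removed, and its part in low levels was not tested. Acat2 and Idi1, like the Scd genes, have close copies, so their counts are uncertain. Promoter sequences came from RefSeq (GRCm38.p6). Members and lists were chosen with earlier results of these data known. All 32 members are named, with full values for those past the fold in a main class and for the 2 with most UMIs in each role. Other pathway genes are named only where past the fold in a main class.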

Additional observations from a re-analysis of the deposited data

How the results depend on the processing

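No paired analysis was possible because each diet was 1 library and the matrices carry no replicate numbers, and for the same reason no replicate could be left out. Of 132 summed levels recomputed (12 results under 11 alternatives), 125 stayed within the counting interval of the main value and 7 lay outside it. A reversal could be called only where the main interval left out 0, which held for the fatty acid sum of mature B-like cells only. That sum did not reverse. In the other sums a change of sign did not count as a reversal. On the log2 scale, the macrophage/monocyte-like cholesterol sum went from -0.03 to 0.083 at resolution 0.25 and to -0.13 with clusters weighted alike in both libraries. With each cell thinned to 1000 UMIs (55 ND and 51 HFD shallower cells left out), the cholesterol sum was -0.087 in mesenchymal-like and 0.44 in endothelial-like cells, and the fatty acid sum 0.062 in macrophage/monocyte-like, 0.90 in T-like and 0.10 in mesenchymal-like cells, and each of these 5 intervals held 0. Thinning also left 12 of 32 members with the same highest class in both libraries, against 25.

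The pairs past the fold depended on the settings. Against 2 pairs higher in HFD there was 1 with all variable genes used for clustering, and 0 with doublets left out, with thinning, with at least 200 UMIs, with a fold limit of 2, and without clusters of over 70% ND cells, an alternative chosen after seeing the data. With doublets left out the ratios were 1.47 for Acly and 1.78 for Elovl6, against 1.56 and 1.85. Against 5 lower pairs there were 3 at resolution 0.25 (2 of them among the 5), 3 with doublets left out (all 3 among them), 8 at resolution 1.0 (4 among them), 2 with thinning (0 among them), 0 with at least 200 UMIs, 11 at a lower fold limit (5 among them) and 1 at a fold limit of 2. With all variable genes used for clustering there were again 5, of which 2 were among the 5. Not every pair had enough UMIs to be tested in each of the 15 alternatives. Srebf2 and Abca1 in mature neutrophil-like cells were past the fold in 12 of 13 tested. In T-like cells Acly was past it in 10 of 13 tested and Msmo1 in 6 of 8. In macrophage/monocyte-like cells Fasn was past it in 9 of 13 tested, Scd2 in 7 of 13 and Elovl6 in 7 of 11. For some of the 15 alternatives the outcome was fixed by the rule itself. Dropping the count filter or lowering the fold limit keeps every pair, and at least 200 UMIs removes every pair. A fold limit of 2 removes all but Msmo1. These alternatives do not bear on how stable the pairs were. After thinning, none of the pairs past the fold in the main setting had enough UMIs left to be tested. Their loss with thinning therefore does not bear on their stability either. The cholesterol sum, on the log2 scale, lay between -0.31 and -0.14 in progenitor-like and between -0.27 and -0.16 in immature neutrophil-like cells over 11 alternatives, and between 0.22 and 0.59 in dendritic-like cells over 10. With thinning the interval held 0 in each of these classes, and it left out 0 in the other alternatives. The cause of these shifts was not tested. Depth limits the rarer classes and genes such as Lss most.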
